A study of Mus musculus with 6 samples.

Results

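The transcription factors that hold T cell identity at the double-positive stage of thymocyte development were followed as a set of 9 genes chosen by name: Tcf7, Lef1, Tcf3, Tcf12, Bcl11b, Ikzf1, Runx1, Satb1 and Myb. All 9 were found by symbol among 43430 gene identifiers, and all 9 passed the filter on low counts, which left 13039 genes. RNA was sequenced from CD4+CD8+ thymocytes isolated by flow sorting from C57BL/6 mice. The 3 KO libraries came from mice of genotype Mettl14fl/fl with a CD4-Cre transgene, and the 3 WT libraries from their littermate controls. No treatment or age is given, and the labels do not say whether the controls carry floxed alleles. Cre under Cd4 control begins to act close to the stage that was sampled, so RNA or protein made before deletion can persist in these cells. METTL14, the product of the targeted gene, pairs with METTL3, and together they methylate adenosines in RNA.

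Double-positive thymocytes rearrange the T cell receptor alpha chain and live only as long as their survival programme lasts. TCF-1 (encoded by Tcf7) and Lef1 are HMG-box factors that can bind beta-catenin, and E2A (Tcf3) and HEB (Tcf12) are E proteins, helix-loop-helix factors that bind E-box sequences. Bcl11b, Ikaros (Ikzf1) and Runx1 set and keep the T lineage and control the coreceptor genes, Satb1 organises chromatin in thymocytes, and c-Myb is needed for double-positive cells to survive. The data address whether the RNA of any of these factors differed when Mettl14 was targeted.

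Counts in genes ranged from 29500254 to 33377056 per library, and no label states that libraries are separate animals, so p-values measure the spread between libraries, which may be partly technical. On the first principal component, WT replicate 1 (-38.9) and KO replicate 1 (32.2) lay at opposite ends. Levels are CPM, counts scaled to library size, after TMM scaling, and a log2 fold change is KO minus WT throughout. Mettl14 itself was at 52.1, 58.8 and 55.8 CPM in WT and at 42.2, 40.3 and 36.4 CPM in KO, with no overlap between the groups. This gave a log2 fold change of -0.49 (SE 0.0855) and an edgeR adjusted p of 0.289, with an adjusted p of 0.0043 in DESeq2 and 0.00401 in the authors' deposited table. The deleted exons are not stated, so reads from outside them can be included. The 8 genes listed as markers of double-positive cells (among them Cd4, Cd8a, Cd8b1, Rag1, Rag2, Arpp21 and Ptcra) were all detected. Their summed level was 13270 to 14905 CPM in WT and 13968 to 14807 CPM in KO. Detection in bulk RNA does not measure the purity of the sort, and 1 of the 8, Ptcra, was higher in KO without overlap.

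The writer complex methylates adenosines in a short consensus of which GGACT is a common form, so the 9 messages were searched for these letters on the sense strand. Methylation was not measured here, and a match marks letters only. The search used 1 coding transcript per gene, that with the longest coding sequence in GENCODE M21. Each of the 9 held at least 1 match, as did 90.8% of 11432 tested genes with a coding transcript. Tcf3 had 2.05 matches per kb, Tcf7 1.21 and Lef1 0.287, and the median of the 9 was 0.812 against 1.05 over all those genes. Within 200 bases either side of the last coding base, where methylation is known to concentrate, 3 of the 9 had a match, namely Tcf7, Runx1 and Bcl11b. The share over 9705 tested genes with a full 400-base window was 41.2%. The windows of these 3 genes are shown with that of Lef1, whose single match lies before its coding sequence. Capitals mark the motif, with 10 bases of transcript on each side, 5′ to 3′ on GRCm38.
Tcf7 (chr11:52253843-52253867, minus strand, 3′ untranslated, the A of the motif 31 bases past the last coding base): cagctccccaGGACTcaccctcgta
Runx1 (chr16:92605618-92605642, minus strand, 3′ untranslated, 28 bases past): cgccatcgagGGACTgggcctgccg
Bcl11b (chr12:107915306-107915330, minus strand, 3′ untranslated, 85 bases past): accggtgaccGGACTggcctctgca
Lef1 (chr3:131110892-131110916, plus strand, 5′ untranslated, 568 bases before the first coding base): tgaaggaagtGGACTtttcggtatt

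No factor of the set passed the test between genotypes, whether or not its message carried the motif near the stop codon. In edgeR's quasi-likelihood test 0 of 9 passed an adjusted p of 0.05, where 0.0383% of all tested genes passed. At an unadjusted p under 0.05 the count was also 0 of 9 (6.72% of all tested genes). The count was 0 of 9 in DESeq2 as well, which called 0.678% of the genes it tested. Among all genes of the authors' deposited comparison 0.762% passed, and among the members 0 of 9. The KO libraries lay all above or all below the WT libraries for 0 of 9, and for 12.6% of tested genes. The 95% intervals of the 9 fold changes, KO over WT, together ran from 0.785 to 1.27. The low end is that of Myb and the high end that of Ikzf1, and the narrowest interval, of Tcf3, ran from 0.916 to 1.10. Differences inside a factor's own interval could not be resolved with 3 libraries per group.

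**Figure D1:**
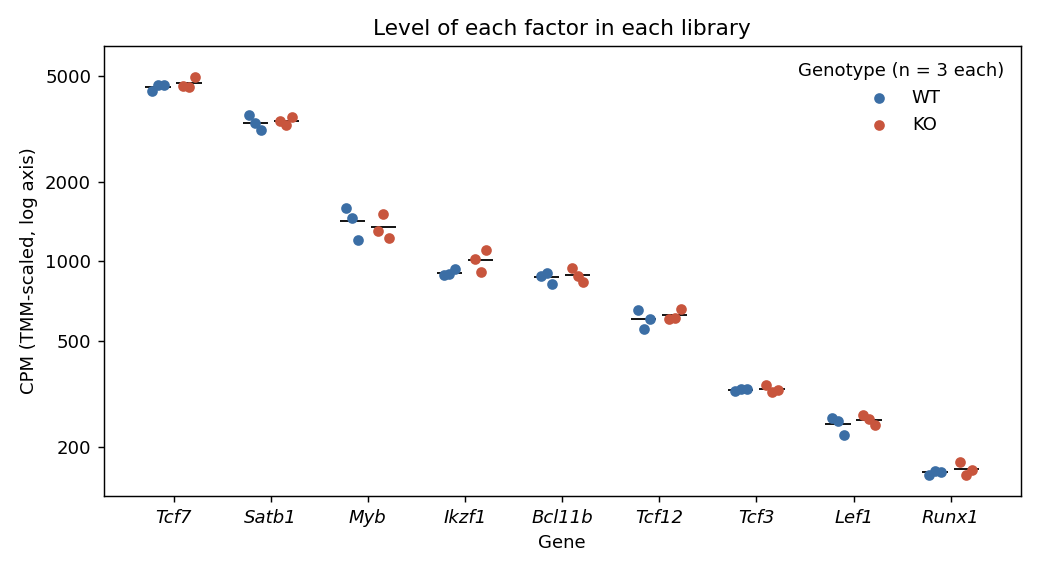
Level of each of the 9 factors in each library, in TMM-scaled CPM on a log axis, with WT libraries in blue, KO libraries in red and the mean of 3 libraries as a black line. The groups overlap for every gene, from Tcf7 (4409 to 4949 CPM) down to Runx1 (156 to 175 CPM).

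Among the HMG-box factors, Tcf7 (chromosome 11, 52252371 to 52283014) had the third highest count level of the 13039 tested genes. It was at 4409, 4618 and 4640 CPM in WT replicates 1 to 3 and at 4602, 4537 and 4949 CPM in KO replicates 1 to 3. Only KO replicate 3 exceeded every WT library. The difference on the log2 scale was 0.04 (95% interval -0.11 to 0.20, SE 0.0663), with an edgeR adjusted p of 0.907. Lef1 (chromosome 3, 131110471 to 131224356), on the same chromosome as Mettl14 (123364645 to 123385990), was at 256, 251 and 221 CPM in WT and 264, 255 and 241 CPM in KO. In both genotypes replicate 3 was the lowest. For Lef1 the log2 fold change came to 0.06 (95% interval -0.12 to 0.24, SE 0.0776, edgeR adjusted p = 0.887).

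Among the E proteins, Tcf3 (chromosome 10, 80409514 to 80433647) varied least of the 9. Its level was 324, 329 and 331 CPM in WT and 341, 322 and 326 CPM in KO, so all 6 libraries lay within a narrow band. Its log2 fold change, 0.008, had the narrowest 95% interval of the 9, -0.13 to 0.14 (SE 0.0582, edgeR adjusted p = 0.984). Tcf12 (chromosome 9, 71842688 to 72111871) was at 655, 554 and 605 CPM in WT and 605, 610 and 663 CPM in KO. The KO libraries lay within the WT range but for KO replicate 3. KO minus WT was 0.05 on the log2 scale (95% interval -0.14 to 0.24, SE 0.0805, edgeR adjusted p = 0.916).

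Ikzf1 (chromosome 11, 11685003 to 11772926), which encodes Ikaros, a zinc finger factor that recruits the NuRD chromatin remodelling complex, had the lowest p of the 9. It was at 888, 895 and 939 CPM in WT and at 1019, 913 and 1100 CPM in KO. KO replicates 1 and 3 lay above every WT library, while KO replicate 2 lay below WT replicate 3. Ikzf1 had a log2 fold change of 0.16 (95% interval -0.03 to 0.34, SE 0.0810) with an edgeR unadjusted p of 0.0923 and an adjusted p of 0.767. In the authors' deposited table it is 0.16 with an adjusted p of 0.711. It was 0.09 without KO replicate 3 and 0.23 without KO replicate 2, both on the same side of the threshold.

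Bcl11b (chromosome 12, 107910403 to 108003602), the zinc finger factor of T lineage commitment, was at 884, 905 and 821 CPM in WT and 946, 882 and 837 CPM in KO. As for Lef1, replicate 3 was the lowest in each genotype. Bcl11b differed by 0.03 on the log2 scale (95% interval -0.14 to 0.20, SE 0.0732, edgeR adjusted p = 0.949). Runx1 (chromosome 16, 92601466 to 92826149), the DNA-binding partner of Cbfb, had the lowest count level of the set, at 157, 162 and 161 CPM in WT and 175, 156 and 163 CPM in KO. KO replicate 1 was the highest and KO replicate 2 the lowest of the 6. Runx1 differed by 0.04 on the log2 scale (95% interval -0.12 to 0.19, SE 0.0669, edgeR adjusted p = 0.924).

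Satb1 (chromosome 17, 51736187 to 51833290), a chromatin organiser, ranked 4 among all tested genes by count level. It was at 3556, 3328 and 3127 CPM in WT and at 3372, 3260 and 3513 CPM in KO, with the KO libraries inside the range of the WT libraries. The fitted difference was 0.02 on the log2 scale (95% interval -0.15 to 0.19, SE 0.0726, edgeR adjusted p = 0.968). Split by replicate number, which no label ties to a pair or batch, the difference of mean log2 CPM was -0.05 in replicates 1 and 2. In replicate 3 it was 0.17, a single library against another. The sign of this split also differed for Myb (-0.12 and 0.031) and Tcf3 (0.021 and -0.021), but not for the other members. Myb (chromosome 10, 21124936 to 21160905) varied most of the 9. It was at 1591, 1454 and 1202 CPM in WT and 1304, 1503 and 1228 CPM in KO, with WT replicate 1 at the top and WT replicate 3 at the bottom. Myb was the only factor with a lower mean in KO (log2 fold change -0.07, SE 0.119, 95% interval -0.35 to 0.20, edgeR adjusted p = 0.915), and that sign turned without WT replicate 1 (0.02).

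**Figure D2:**
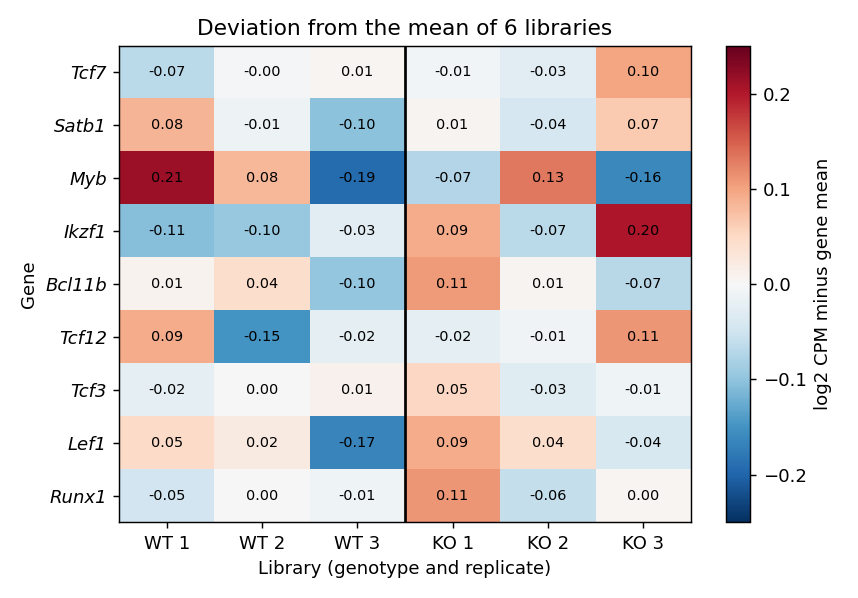
Log2 CPM of each factor in each library minus that factor's mean over the 6 libraries, with WT replicates left and KO replicates right of the black line. Tcf3 stays between -0.03 and 0.05, while Myb ranges from -0.19 in WT replicate 3 to 0.21 in WT replicate 1.

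Of the 9 log2 fold changes, 8 were above 0 and their median was 0.039, against 48.9% above 0 and a median of -0.004 over all tested genes. With upper-quartile scaling 6 of 9 were above 0, against 42.6% of all tested genes (medians 0.016 and -0.027). Without KO replicate 1 it was 5 of 9, against 48.4% (medians 0.025 and -0.006). The median of the 9 stayed above that of all tested genes in each alternative. The count of positive signs changed with the setting, so it does not give a direction for the set. The factors did not share 1 pattern over the libraries. Likeness was measured as the root mean square difference of centred log2 CPM over the 6 libraries, which is small also for any pair of genes that hardly vary. Among the 36 pairs it was lowest for Tcf3 and Runx1 (0.03), next for Bcl11b and Lef1 (0.04), and highest for Ikzf1 and Myb (0.24). Bcl11b and Lef1 shared their lowest values in replicate 3 and their highest in KO replicate 1. The mean profile of the 9 stayed within -0.07 to 0.04 log2 units of its own average. Of 6131 other genes whose mean log2 CPM was 5 or more, those closest to it were Arfgef2 (0.0118), Trbv12-2 (0.0131) and Tbp (0.0131).

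The spread within a genotype bounds what could be seen for each factor. The SD of log2 CPM within genotype was 0.0328 for Tcf3, 0.0556 for Tcf7, 0.0635 for Runx1, 0.0760 for Satb1 and 0.0810 for Bcl11b. It was 0.0949 for Lef1, 0.0998 for Tcf12, 0.10 for Ikzf1 and 0.180 for Myb. Set against the 500 tested genes nearest in level, Tcf3 varied more than 2.6% of them and Tcf7 more than 14.6%. Lef1 (50.2%), Tcf12 (53.0%) and Ikzf1 (52.8%) lay near the middle, and Myb varied more than 87.0%.

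Levels of different genes were compared per kb of exon. The deposited gene lengths could not serve for this, because for many genes they add up the lengths of all annotated transcripts. Tcf12 is given 51870 bases, which equals the sum over its GENCODE M21 transcripts, while its merged exons cover 15529 bases. With merged exon lengths, Tcf7 stood highest at 1735 ± 48.5 CPM per kb in WT and 1789 ± 84.4 in KO (SD, n = 3 each). Satb1 (175 ± 11.3 CPM per kb in WT), Myb (158 ± 22.1) and Ikzf1 (157 ± 4.73) followed, and their ranges over the 6 libraries overlapped. Below them came Bcl11b (107 ± 5.39), Tcf3 (81.2 ± 0.922), Tcf12 (38.9 ± 3.26), Lef1 (27.6 ± 2.18) and Runx1 (13.3 ± 0.233), each pair of neighbours without overlap between libraries. On the length of 1 representative transcript the order changed in the middle. Satb1 (890 ± 57.3 CPM per kb in WT), Myb (383 ± 53.4) and Ikzf1 (193 ± 5.81) were then apart from each other, while the libraries of Bcl11b (107 ± 5.39) overlapped those of both Tcf3 (112 ± 1.27) and Tcf12 (96.0 ± 8.03). Tcf7 was the highest and Runx1 the lowest on both scales and on the deposited lengths.

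Because factors of a family bind like sequences, the share of each family held by each paralogue was compared between genotypes, per kb of merged exon. The two-sided exact permutation test was applied to 20 shares, and with 3 libraries against 3 it cannot give a p below 0.1, so no share could pass after adjustment (lowest adjusted p = 0.8). Tcf7 held 98.3%, 98.4% and 98.6% of the TCF/LEF level in WT and 98.3%, 98.3% and 98.5% in KO, and Lef1 most of the rest (1.57% ± 0.154 in WT, 1.59% ± 0.137 in KO; SD, n = 3). Among the E proteins Tcf3 held 66.9% ± 2.03 in WT and 66.1% ± 1.54 in KO, Tcf12 32.0% ± 1.98 and 32.7% ± 1.45, and Tcf4 1.09% ± 0.0551 and 1.21% ± 0.0919. The lead of Tcf3 over Tcf12 depends on the length used, since with representative transcripts Tcf3 held 51.8% ± 2.27 and Tcf12 44.3% ± 2.13 in WT, and with the deposited lengths Tcf12 led (50.6% ± 2.13 against 45.3% ± 2.26).

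Ikzf1 held 67.7%, 70.9% and 71.1% of the Ikaros family in WT and 72.3%, 70.4% and 75.7% in KO (exact permutation p = 0.3). Ikzf3, which encodes Aiolos, held 24.5%, 20.5% and 20.2% in WT and 19.7%, 21.2% and 16.1% in KO (exact permutation p = 0.4). Both shares overlapped between the groups. Runx1 held 80.7% ± 3.53 of its family in WT and 78.7% ± 1.84 in KO, and Runx3, the factor of the CD8 lineage, between 14.7% and 22.0% over the 6 libraries. Myb held 90.3% ± 3.56 and 90.6% ± 1.62 of its family. Its proliferation-linked paralogue Mybl2 held 7.49% ± 2.40 and 7.08% ± 1.26. Bcl11b stood all but alone in its family, since Bcl11a had 29 counts over all 6 libraries.

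**Figure D3:**
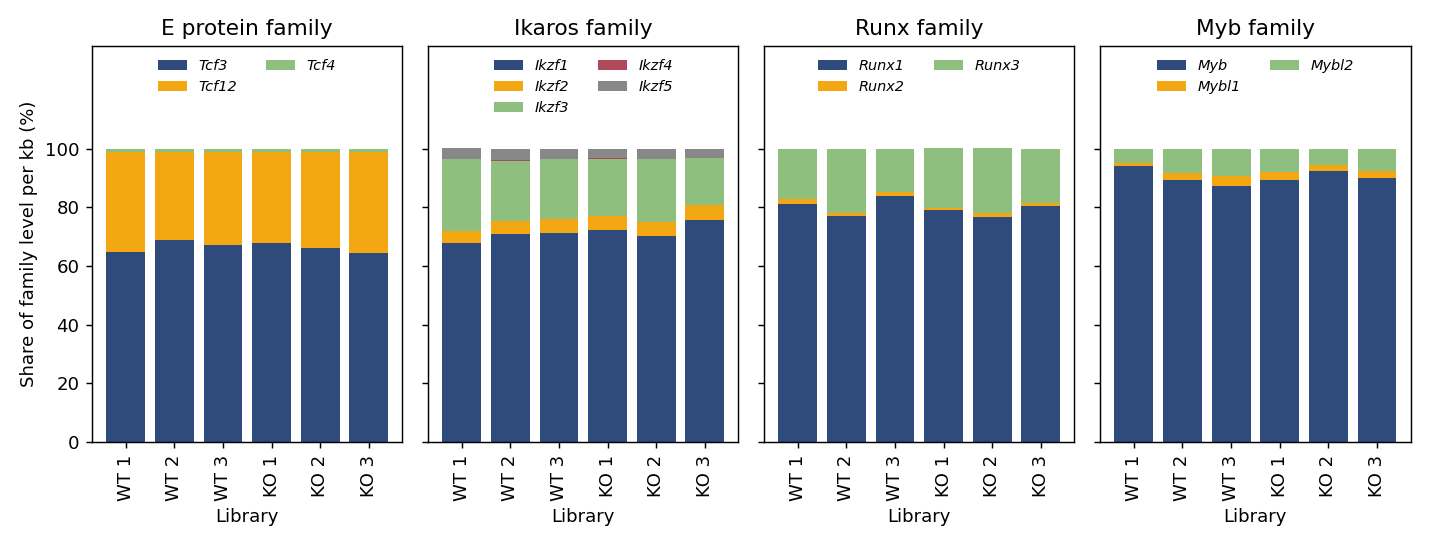
Share of each paralogue in its family's level per kb of merged exon, in percent, as 1 stacked bar per library (WT and KO replicates) for the E protein, Ikaros, Runx and Myb families. Tcf3, Ikzf1, Runx1 and Myb hold the largest share in all 6 libraries, and each share overlaps between WT and KO.

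Of 11 tested paralogues outside the set, 0 passed in edgeR, DESeq2 or the authors' deposited table. At an edgeR unadjusted p under 0.05 (6.72% of all tested genes), 1 of the 11 passed. This was Tcf7l1, a TCF family member of low level here, at 2.14, 1.94 and 2.29 CPM in WT and 1.19, 1.63 and 1.36 CPM in KO, without overlap. On the log2 scale this was -0.60 (SE 0.231, edgeR unadjusted p = 0.0318, adjusted p = 0.715). The others had log2 fold changes from -0.29 (Runx2) to 0.32 (Tcf7l2).

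**Figure D4:**
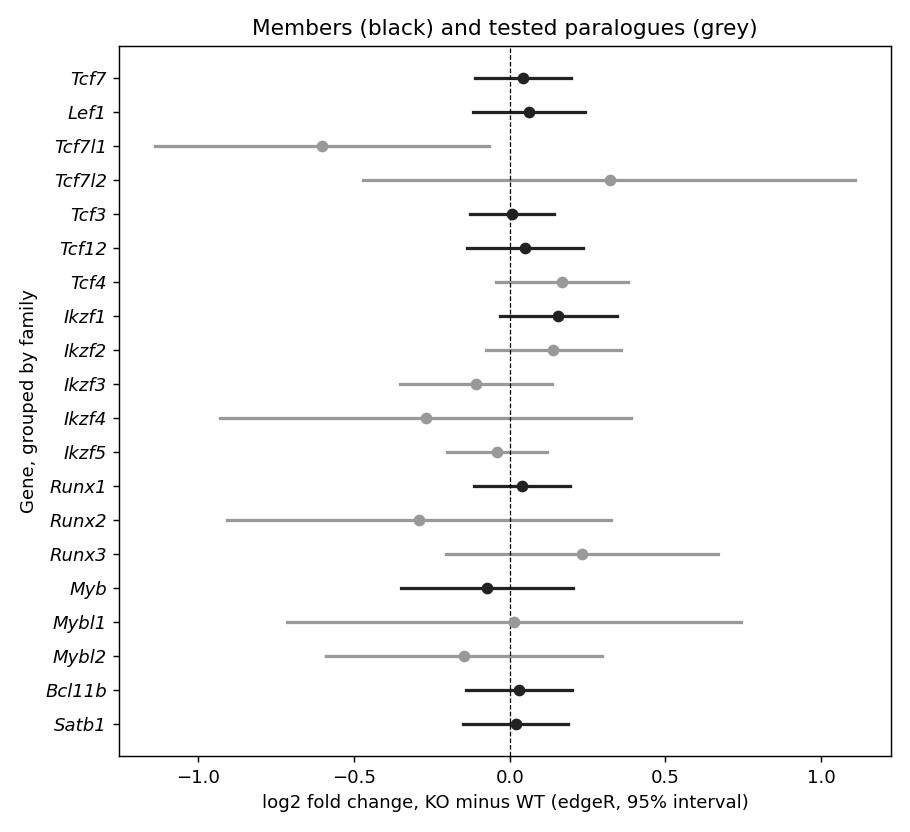
Log2 fold change, KO minus WT, with its 95% interval from the edgeR fit, for the 9 factors (black) and their tested paralogues (grey), grouped by family. The interval of Tcf7l1 lies below 0 without adjustment, and those of the 9 factors all include 0.

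The proteins that work with these factors were next described, again with 0 calls by edgeR, by DESeq2 and in the authors' deposited table among the genes of each list that passed the filter on low counts. The share of all tested genes with an edgeR unadjusted p under 0.05 was 6.72%, which stands beside each such count in the lists below. Of 13 tested TCF/LEF cofactors, 2 had an unadjusted p under 0.05 and the median log2 fold change was 0.082 (0.026 without WT replicate 1). Bcl9l, a beta-catenin adaptor, was at 38.6 ± 2.62 CPM in WT and 46.8 ± 4.96 in KO (log2 fold change 0.28, SE 0.0995, edgeR adjusted p = 0.713). Ctnnbip1, an inhibitor of beta-catenin binding, was at 14.7 ± 1.08 and 11.7 ± 1.44 CPM (-0.32, SE 0.135, adjusted p = 0.733). The corepressor gene Tle2 was at 102 CPM in WT replicate 1 and between 29.3 and 61.0 CPM in the other 5 libraries. The Tle2 log2 fold change was -0.67, or -0.331 without that library and -0.429 without KO replicate 1.

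Of 12 genes listed as E protein partners and inhibitors, 8 were tested, with a median log2 fold change of -0.09 that turned to 0.108 without WT replicate 1. Id3, an inhibitor that pairs with E proteins and keeps them off DNA, was at 151, 90.3 and 91.2 CPM in WT and 100, 98.5 and 96.0 CPM in KO. WT replicate 1 alone stood above the KO libraries. Cbfa2t3, a corepressor found in E protein complexes, was at 98.8 ± 8.93 CPM in WT and 116 ± 5.09 in KO without overlap (log2 fold change 0.23, SE 0.0837, edgeR adjusted p = 0.713). Cbfa2t2 had a log2 fold change of 0.10, and Lyl1, at most at 0.478 CPM in any library, of -0.36.

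All 13 NuRD subunits, which Ikaros recruits, were tested, and 0 had an unadjusted p under 0.05. Their median log2 fold change was 0.042, with the lowest p for Gatad2a (0.13), Mbd3 (0.11) and Gatad2b (0.07). Among 6 cofactors of Runx1 and Myb, 1 had an unadjusted p under 0.05. This was the acetyltransferase gene Ep300, at 252 ± 20.5 CPM in WT and 291 ± 16.7 in KO (log2 fold change 0.21, SE 0.0802, edgeR adjusted p = 0.715). Men1 had 0.16 (0.096 without WT replicate 1). Kmt2a had 0.36, with WT libraries from 280 to 522 CPM and KO libraries from 433 to 595 CPM, and went to 0.159 without WT replicate 1 and 0.603 without WT replicate 3. Of 22 tested BAF remodelling subunits, 0 had an unadjusted p under 0.05 and the median was 0.011. Smarcd1 (-0.16), Arid2 (0.10) and Arid1a (0.15) had the lowest p. Smarcd3, a BAF subunit gene below the filter, had 16, 21 and 4 counts in WT and 0 in each KO library. It passed in DESeq2 (adjusted p = 0.0196) and in the authors' deposited table (0.0292), but not in edgeR without the filter.

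The genes these factors control were described by 3 lists, some of which repeat members or each other. Of 24 tested genes of the double-positive programme, 2 had an unadjusted p under 0.05, both higher in KO, and the median log2 fold change was 0.023. Ptcra, whose product pairs with the beta chain in the pre-T cell receptor, was at 40.5, 37.1 and 42.0 CPM in WT and 54.1, 47.0 and 51.8 CPM in KO, without overlap (0.35, SE 0.0857, edgeR adjusted p = 0.488, authors' deposited adjusted p = 0.0902). Aqp11, an aquaporin gene, was at 190, 197 and 227 CPM in WT and 238, 235 and 242 CPM in KO (0.22, SE 0.0799, edgeR adjusted p = 0.713), and Rag2 at 345 ± 11.9 and 380 ± 23.1 (0.14). Bcl2l1, which encodes the survival factor Bcl-xL, was at 317 ± 11.8 CPM in WT and 332 ± 20.2 in KO (0.06, SE 0.0694, edgeR adjusted p = 0.869).

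Of 9 tested TCF/LEF target genes, which include Tcf7 and Lef1, 1 had an unadjusted p under 0.05 and the median was 0.044 (-0.056 without KO replicate 3). Znrf3, a negative regulator of Wnt receptors, was at 46.5 ± 1.58 CPM in WT and 39.4 ± 4.13 in KO (-0.24, SE 0.0922, edgeR adjusted p = 0.715). Myc had -0.28 and Zbtb7b 0.32. Axin2, a classical readout of TCF and beta-catenin activity, was at 29.5, 28.3 and 36.1 CPM in WT and 28.5, 31.6 and 35.5 CPM in KO (log2 fold change 0.03, edgeR adjusted p = 0.976).

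Genes of progenitors and of other lineages, many of which Bcl11b, TCF-1 and the E proteins hold down, were mostly too low to test. Of 27 matched, 9 passed the filter, so counts over those 9 do not stand for the list. Among them 2 had an unadjusted p under 0.05, Nkg7 (1.29, SE 0.548) and Fcer1g (0.85, SE 0.361), both with an edgeR adjusted p of 0.733 and neither above 1.18 CPM in any library. Il2rb had a log2 fold change of 0.40. The median of the 9 was 0.25, and it turned to -0.079 without WT replicate 3 and -0.164 without KO replicate 2. NK cells express all 3 genes, and Nkg7 and Fcer1g are among the 8 matched markers of NK and gamma-delta cells, none of them at 0 in all libraries. The listed marker Trdc had no identifier. Of the 8 matched markers, 4 were tested, and all 4 had a log2 fold change above 0. All 4 also had an edgeR unadjusted p under 0.05 (6.72% of all tested genes). The 8 matched markers summed to 2.22 to 2.88 CPM in WT and 5.77 to 8.12 CPM in KO, and the part of such cells in these values was not tested. Most of the KO sums came from the receptor gamma constant genes Tcrg-C1 (2.10 to 2.57 CPM) and Tcrg-C2 (2.24 to 2.76 CPM), near-identical genes between which reads can be split. They were at 0.649 to 1.15 and 0.673 to 1.02 CPM in WT. Their adjusted p was 0.335 and 0.289 in edgeR, 0.0105 and 0.00301 in DESeq2, and 0.0215 and 0.0021 in the authors' deposited table. Of the NK receptor genes, Ncr1 had 1 count in all and Klrb1c 12, 7 of them in WT. Klrd1 had 0, 4 and 1 counts in WT and 3, 2 and 9 in KO. The marker Tyrobp had 2, 2 and 1 counts in WT and 5, 10 and 25 in KO (DESeq2 adjusted p = 0.239). Zbtb16 had 4 counts and Tal1 0 over the 6 libraries. Of the 15 counts of Pax5, 9 and 5 were in KO replicates 2 and 3, as were 12 and 9 of the 23 counts of Spi1. Bcl11a, a B cell and progenitor factor, had 2, 4 and 0 counts in WT and 0, 13 and 10 in KO. Pax5 is a B cell gene, and whether B cells contributed the Bcl11a counts was not tested.

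**Figure D5:**
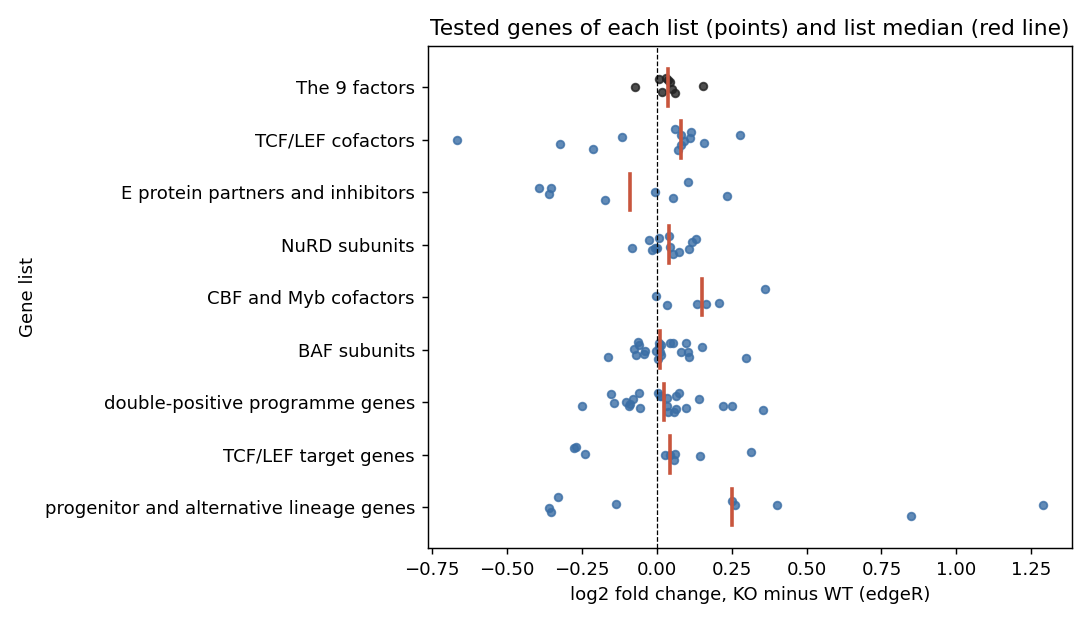
Log2 fold change, KO minus WT, of each tested gene (points, with vertical scatter for visibility only) and the median (red line) for the 9 factors and the partner and target lists. The 9 factors lie between -0.07 and 0.16, and the points farthest from 0 are Nkg7 (1.29), Fcer1g (0.85) and Tle2 (-0.67).

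Ikzf1, Runx1 and Myb are also expressed in other blood cells, so markers of these were read beside the members. Markers of B cells summed to 796 to 846 CPM in WT and 799 to 845 CPM in KO, nearly all from Ighm (771 to 828 CPM over the 6 libraries). Myeloid markers summed to 86.8 to 92.1 and 90.2 to 114 CPM, and mature single-positive markers to 309 to 320 and 309 to 338 CPM. Double-negative markers summed to 320 to 358 CPM in WT and 391 to 511 CPM in KO, highest in KO replicate 1, and Notch1 made up most of this (280 to 447 CPM). The list did not move as one: 4 of its 6 tested genes had a log2 fold change above 0. At an edgeR unadjusted p under 0.05 (6.72% of all tested genes), 3 of the 6 passed, namely Notch1, Dtx1 and Cd44. Notch1 (0.345, edgeR adjusted p = 0.665) and Dtx1 (1.01, adjusted p = 0.713) were higher in KO without overlap. Dtx1 was at 11.1, 15.3 and 11.2 CPM in WT and 42.1, 17 and 16.7 CPM in KO. Il2ra (0.255) and Il7r (0.067) overlapped between the groups. Cd44 was lower in KO, at 10.6, 11.8 and 10.9 CPM in WT and 5.74, 8.37 and 9.11 CPM in KO (-0.52, edgeR adjusted p = 0.713), and Kit was at -0.33. Stromal markers summed to 153 to 180 and 149 to 160 CPM, mostly Pecam1, with Krt5, Foxn1 and Pdgfra at 0. Red cell markers summed to at most 0.606 CPM. The part of any of these in the values of the 9 factors was not tested. In these bulk libraries fewer cells of a type and less RNA per cell cannot be told apart.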

How the data were processed

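Raw gene counts were deposited by the authors library by library and again in 1 joint table (identical at all 43430 genes), which adds gene positions and lengths per the file headers. Trimmomatic 0.33, STAR 2.5.2, HTSeq, DESeq2 and the build mm10 are named in the submitters' processing notes. How HTSeq treated strand and overlaps, and which annotation it used, is not given in the sources used here. Any gene overlapping a member held at most 0.646% of that member's counts. The authors' deposited comparison table gives a normalized signal (counts divided by 1 size factor per library), log2 fold changes, a Wald score and p-values. It is named as paired, and what was paired is not given in the sources used here, so its p-values may come from another design than the fits made here. Rows naming no gene were left out: 12.3% to 15.2% of reads had no feature, 22.6% to 23.9% several alignments and 0.653% to 0.701% were ambiguous. Replicates of a group differed beyond sampling noise (lowest ratio of chi-square to its degrees of freedom 16.1).

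Counts were tested with edgeR 4.0.16 in R 4.3.3 (TMM scaling, filterByExpr on the groups, a two-sided quasi-likelihood test with genotype as the sole term, Benjamini-Hochberg adjustment over all tested genes, threshold 0.05). A standard error is the log2 fold change over the square root of F, and 95% intervals use the t distribution. DESeq2 1.42.0 and limma-voom (limma 3.58.1) were alternatives. The tests were checked on simulated data. Paralogue shares were to use the deposited lengths. Those equal the summed transcripts of GENCODE M21 for 51.6% of the 19686 genes where this differs from the merged exons, and the merged exons for 107 genes, so merged exons were used instead, chosen after seeing the data. Per-kb levels and intervals carry counting and replicate error only.

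Members and lists were chosen with earlier results of these data known, and the GGACT search was added after the data were seen. The text names all 9 members, Mettl14, tested paralogues, the 3 genes with the lowest p in each partner and target list with any gene called there (Smarcd3, below the filter, included), and the 3 genes most like the members' mean. Id1, Id2, Id3, Bcl2l1, Axin2, Zbtb16, Pax5, Spi1, Tal1 and the marker genes were named outside that rule after their values were seen.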

Additional observations from a re-analysis of the deposited data

How the results depend on the processing

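The count of called members was 0 of 9 under each of the 14 alternatives, while calls over all genes went from 5 to 105 in DESeq2, to 30 with no filter on low counts and to between 4 and 23 when a library was left out. The highest of these was without WT replicate 3, and WT replicate 1 and KO replicate 2 also moved it (8 and 14). With the replicate block, edgeR called 5 genes and 0 members. Deviations of same-numbered libraries correlated at -0.149, 0.0796 and 0.192, and 1 of 3 WT libraries correlated best with its own number, so the numbers were not taken to pair libraries. The log2 fold changes of Tcf7, Lef1 and Ikzf1 kept their sign in 14 of 14 alternatives, and those of the other 6 members turned in at least 1. With upper-quartile scaling, where the median of all tested genes was -0.027, Tcf3 was at -0.015, Satb1 at -0.004 and the paralogue Mybl1 at -0.007. Leaving out replicate 1 of both groups, chosen after seeing the data, gave Bcl11b -0.005, Tcf3 -0.026, Myb 0.040, Runx1 -0.023, Runx2 0.001 and Mybl1 -0.407. Leaving out 1 library gave ranges of -0.014 to 0.074 for Bcl11b, -0.009 to 0.111 for Tcf12, -0.014 to 0.033 for Tcf3, -0.172 to 0.018 for Myb, -0.006 to 0.084 for Runx1, -0.019 to 0.067 for Satb1, 0.007 to 0.076 for Tcf7, 0.005 to 0.101 for Lef1 and -0.302 to 0.334 for Mybl1. The cause of these turns was not tested. List medians ranged, without 1 library, from 0.026 to 0.112 for TCF/LEF cofactors, from -0.170 to 0.108 for E protein partners and inhibitors, from -0.002 to 0.085 for NuRD subunits, from -0.016 to 0.076 for double-positive programme genes, from -0.056 to 0.059 for TCF/LEF target genes and from -0.164 to 0.227 for progenitor and alternative lineage genes. Of the 3 tested genes with the lowest p in each partner and target list, none passed or turned when 1 library was left out. Id1, Id2, Id3, Bcl2l1 and Axin2, named outside that rule, were not part of this count. With WT replicate 1 set aside, the WT libraries of Id3 (90.3 and 91.2 CPM) lay below its KO libraries (100, 98.5 and 96.0 CPM). Several of the genes counted moved by over 1.5 times: Tle2 (-0.931 to -0.331), Kmt2a (0.159 to 0.603), Men1 (0.096 to 0.243), Arid1a (0.065 to 0.281), Gatad2a (0.083 to 0.208), Mbd3 (0.050 to 0.185), Gatad2b (0.020 to 0.152), Cbfa2t2 (0.054 to 0.153), Lyl1 (-0.479 to -0.197), Myc (-0.439 to -0.185), Znrf3 (-0.302 to -0.157), Zbtb7b (0.117 to 0.579), Il2rb (0.075 to 0.695) and Nkg7 (0.836 to 1.702). So did the paralogues Runx2 (-0.459 to -0.137), Runx3 (0.090 to 0.455), Tcf7l2 (0.120 to 0.636) and Mybl2 (-0.347 to -0.007). The same held for Ikzf2 (0.078 to 0.230), Ikzf3 (-0.165 to -0.005), Ikzf4 (-0.450 to -0.043) and Ikzf5 (-0.073 to -0.006). Without replicate 1 of both groups the medians were 0.031 for TCF/LEF cofactors, -0.060 for NuRD subunits and 0.115 for double-positive programme genes. With 3 libraries a group, the spread between libraries, not depth, limits what the members can show: the lowest member count in a library was 4596 (Runx1).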

Other observations

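Myb and its paralogues were not ordered alike over the libraries. Myb was highest in WT replicate 1 (1591 CPM), where Mybl1 (10.5 CPM) and Mybl2 (41.8 CPM) were at their lowest, against 18.8 to 28.4 CPM and 47.7 to 70.5 CPM in the other 5 libraries. Myb was lowest in WT replicate 3 (1202 CPM), where Mybl1 was highest (28.4 CPM). The E protein inhibitor genes shared the same library. Id1 was at 2.96 CPM in WT replicate 1 and 1.02 to 1.56 CPM elsewhere, Id2 at 11.9 CPM and 3.83 to 5.96 CPM, and Id3 at 151 CPM and 90.3 to 100 CPM. The E protein genes themselves did not follow it alike, since Tcf3 was at 324 CPM there, the second lowest of its 6 values, and Tcf12 at 655 CPM, the second highest of its 6.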
